A study of Sus scrofa with 40 samples.

Results

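The 7 genes followed here encode enzymes of cysteine, methionine and taurine metabolism, measured in pig kidneys after warm ischemia and cold storage. The list held 10 genes (CDO1, CSAD, CTH, CBS, BHMT, AHCY, MAT2A, GNMT, MPST and SUOX), and the array rows were selected by gene name or by a member symbol in brackets in the probe description. This found 7 of the 10 genes, with 7 transcript identifiers and 9 probes out of 43803 probe spots and 35955 identifiers on the array. CBS, MAT2A and SUOX are not analysed here. The list was chosen with the low CDO1 signal after cold storage already known, so the differences of CDO1 from Ctl and from WI after cold storage are given as a description, with their errors and no test.

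The data came from 40 one-colour Agilent arrays of total RNA from 3-month-old Large White pigs, 5 arrays in each of 8 groups. The control group (Ctl) was frozen straight after removal, without ischemia. In the warm ischemia group (WI) the kidney stayed clamped for 60 min at 37 °C. In the WI+CS6h and WI+CS24h groups the same warm ischemia was followed by a flush with University of Wisconsin solution and by static storage at 4 °C, for 6 h and for 24 h. Each condition was sampled in cortex (C) and in the corticomedullary junction (CMJ). The 15 kidneys came from brother pigs, and the same 5 kidneys gave the 6 h and the 24 h samples. No group was stored cold without warm ischemia before it. An array reads the RNA of all cells of a biopsy, so fewer cells of a type and less RNA per cell cannot be told apart.

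Methionine enters the cycle as S-adenosylmethionine, the methyl donor that MAT enzymes make. GNMT, glycine N-methyltransferase, uses it to methylate glycine, and AHCY splits the product S-adenosylhomocysteine into adenosine and homocysteine. BHMT returns homocysteine to methionine with a methyl group from betaine, whereas CBS and CTH carry it through cystathionine to cysteine. Cysteine is then oxidised by CDO1, cysteine dioxygenase, to cysteine sulfinate, which CSAD decarboxylates toward taurine, an osmolyte and antioxidant that the renal medulla accumulates. MPST takes sulfur from mercaptopyruvate, a transamination product of cysteine, and is a source of hydrogen sulfide, and SUOX oxidises sulfite to sulfate. The proximal tubule is a major site of these reactions in the kidney.

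The probes that carried the results are shown 5′ to 3′ as the array files give them, whole or as their last 30 bases. The CDO1 probe is shown because the largest differences rest on it alone, the CSAD probes because they did not read the same difference, and the others because the remaining differences of note rest on 1 probe each. Capitals mark AATAAA, the letters of the common polyadenylation signal, which CSAD probe A_72_P737263 also holds, at base 17 of 60, outside the bases shown.
CDO1, last 30 bases: aattgccaaatcattttAATAAAactggat
CSAD, probe A_72_P513113, last 30 bases: acttctttatacattttgtgctttcccctt
CSAD, probe A_72_P737263, last 30 bases: tatccaaatcatggaatcttactctgccat
BHMT, 60 bases: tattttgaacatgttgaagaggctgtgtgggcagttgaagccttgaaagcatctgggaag
GNMT, 60 bases: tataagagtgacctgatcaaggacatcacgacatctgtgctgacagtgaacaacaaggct
MPST, 60 bases: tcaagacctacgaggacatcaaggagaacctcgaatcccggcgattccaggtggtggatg
AATAAA, read on the strand of the probe, was present in 9.6% of the 43603 different probes of the array. Whether the BHMT probe tells BHMT from its close paralog BHMT2 was not tested.

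Signals are log2 values after quantile normalization over the 40 arrays, and differences are log2 differences between group means. On an array, 57.01% to 69.91% of probe spots were well above background. Every identifier of the 7 genes was well above background on all 40 arrays. The tissue label was checked with 10 of 15 proximal tubule genes found on the array, whose mean log2 signal had group medians from 13.2 to 13.6. The 7 loop of Henle and collecting duct genes had group medians from 9.28 to 9.58 in the 4 cortex groups and from 9.68 to 9.85 in the 4 CMJ groups, but single arrays overlapped, with 9.23 to 9.72 in Ctl-C and 9.48 to 10.06 in Ctl-CMJ.

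CDO1 was low in every cold-stored sample of both tissues. In Ctl-C its log2 signals were 7.57, 7.77, 7.56, 8.26 and 8.41, and in WI-C they were 8.21, 8.68, 7.64, 7.98 and 8.48. In WI+CS6h-C they were 5.94, 5.36, 4.52, 5.09 and 6.56, and in WI+CS24h-C they were 5.96, 5.30, 4.26, 4.89 and 5.94. The highest cold-stored cortex sample, 6.56, lay below the lowest sample of the unstored cortex groups, 7.56. In Ctl-CMJ the log2 signals were 8.29, 8.31, 7.89, 8.72 and 8.64, and in WI-CMJ they were 8.30, 8.39, 8.20, 8.20 and 8.00. In WI+CS6h-CMJ they were 5.13, 5.01, 4.00, 3.87 and 5.80, and in WI+CS24h-CMJ they were 5.22, 5.37, 4.09, 4.55 and 5.94. The unstored and stored samples did not overlap in the CMJ either, and the cold groups were the more spread, with an SD of 0.73 to 0.81 against 0.15 to 0.41 in the 4 unstored groups.

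**Figure D1:**
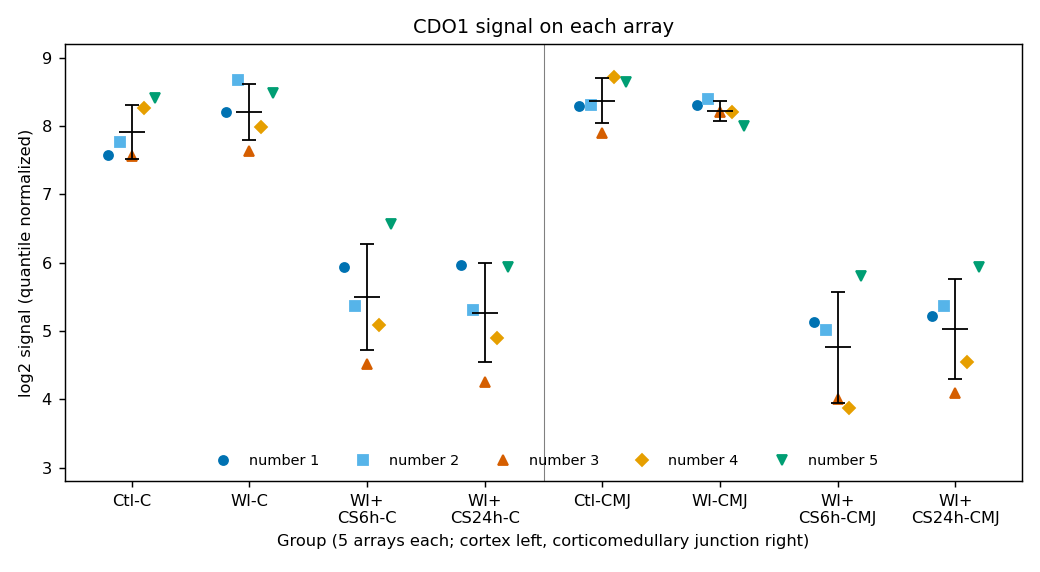
CDO1 log2 signal (quantile normalized, vertical axis) on each of 40 arrays by group; marker shape and colour give the sample number in the labels, the horizontal dash is the group mean and the bar 1 SD (n = 5). The 20 cold-stored samples lie between 3.87 and 6.56 and the 20 unstored samples between 7.56 and 8.72.

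Against Ctl-C, CDO1 was 5.34-fold lower at 6 h (a log2 difference of -2.42 ± 0.37, SE) and 6.24-fold lower at 24 h (-2.64 ± 0.37). Against Ctl-CMJ it was 12.2-fold lower at 6 h (-3.61 ± 0.35) and 10.1-fold lower at 24 h (-3.34 ± 0.35). The differences from warm ischemia alone were of like size, at -2.70 and -2.93 in cortex and -3.46 and -3.18 in the CMJ for 6 h and 24 h. Both sets of comparisons use the same cold-stored samples. In the comparisons with WI, AQP3 was the only 1 of the 7 loop of Henle and collecting duct markers called, and it was lower. Its differences were -0.63 and -0.65 in cortex and -0.88 at both times in the CMJ. The part of these cells in the CDO1 values was not tested. In order from the lowest difference of all identifiers tested, CDO1 stood at place 46 and 25 in cortex against Ctl-C at 6 h and 24 h, and at place 7 and 8 in the CMJ against Ctl-CMJ. Group ranges without overlap were found in 5.23% and 5.73% of all identifiers against Ctl-C at 6 h and 24 h, 5.96% and 5.45% against Ctl-CMJ, 3.27% and 3.38% against WI-C, and 5.91% and 4.58% against WI-CMJ. These shares stand beside CDO1 only as background, since its cold storage values chose the list.

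Slides and scan days were shared between groups, which allowed the CDO1 difference to be read inside each. Its sign was fixed in advance, since stored and unstored samples did not overlap, so only its size could vary. It was -3.74 to -1.62 on the 4 slides with WI+CS6h-C and Ctl-C samples. On the 4 slides with WI+CS6h-CMJ and Ctl-CMJ samples it was -4.85 to -3.17. For the 6 h samples against Ctl within the 2 scan days it was -2.05 and -2.66 in cortex and -2.86 and -4.10 in the CMJ. The size depended on background correction. With normexp correction, which adds an offset and compresses dim signals, the differences from Ctl were -1.16 and -1.22 in cortex and -1.66 and -1.59 in the CMJ at 6 h and 24 h.

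CDO1 after warm ischemia overlapped the controls in both tissues, and 2 of 5 WI-C samples lay above every Ctl-C sample. The difference from Ctl was 0.29 in cortex (95% interval -0.48 to 1.06, adjusted p = 1) and -0.15 in the CMJ (-0.88 to 0.57, adjusted p = 0.933) by limma. Between 24 h and 6 h of storage the difference was -0.22 in cortex (-0.99 to 0.55) and 0.27 in the CMJ (-0.45 to 1.00), with an adjusted p of 1 in each. Samples of the same number differed from 6 h to 24 h by -0.62 to 0.02 in cortex, with 4 of 5 lower at 24 h, and by 0.09 to 0.68 in the CMJ, with 5 of 5 higher at 24 h. With the number as a block in the 2 cold groups alone, the CMJ difference kept its value, 0.27 ± 0.11 (SE), with an adjusted p of 0.890. In Ctl kidneys the CMJ minus cortex difference of CDO1 was 0.46 (adjusted p = 1). Between samples of the same number, CMJ minus cortex was 0.23 to 0.71 in Ctl, positive in 5 of 5, and -1.22 to -0.35 in WI+CS6h, negative in 5 of 5. It was -0.49 to 0.56 in WI, negative in 2 of 5, and -0.74 to 0.07 in WI+CS24h, negative in 4 of 5. The interaction of tissue with storage, which rests on the values that chose the list and is given with no test, was -1.19 at 6 h and -0.69 at 24 h.

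CSAD, the enzyme after CDO1 on the way to taurine, did not pass the test in any comparison, and its cold-stored samples were spread. In Ctl-C the log2 signals, averaged over 2 probes, were 8.57, 8.41, 8.27, 8.54 and 8.60. In WI+CS6h-C they were 8.60, 8.45, 7.81, 7.74 and 8.19, and in WI+CS24h-C they were 8.49, 8.68, 7.71, 7.91 and 8.10. Samples 1 and 2 of the cold groups lay in the range of the controls or above it, and samples 3, 4 and 5 below it. In the CMJ, where Ctl ranged from 8.09 to 8.54, the 6 h samples were 8.52, 8.64, 7.65, 7.60 and 8.31, and only samples 3 and 4 lay below the controls. The mean of the leukocyte markers was highest in samples 1 and 2 of the cold groups in both tissues. LYZ was the most spread of these markers, with an SD of 1.52 in WI+CS6h-C and 1.57 in WI+CS6h-CMJ. The others had SDs of 0.21 to 0.44 and of 0.28 to 0.74 there, so the mean rests largely on LYZ. The mean log2 signal of the 4 found was 6.21 and 5.93 in samples 1 and 2 of WI+CS6h-C and 5.33 to 5.63 in the others, and 6.18 and 6.17 against 4.93 to 5.28 in WI+CS6h-CMJ, where sample 5, in the CSAD range of the controls, was the lowest. Their part in the CSAD values was not tested. The difference from Ctl was -0.32 ± 0.18 (SE, adjusted p = 0.314) and -0.30 ± 0.18 (adjusted p = 0.451) in cortex at 6 h and 24 h, and -0.15 ± 0.21 at both times in the CMJ. The probes disagreed. Probe A_72_P513113 gave -0.57 (adjusted p = 0.0925) and -0.52 (adjusted p = 0.164) in cortex at 6 h and 24 h, and probe A_72_P737263 gave -0.07 and -0.09. In the CMJ at 6 h they differed in sign, at -0.34 and 0.04, and at 24 h they were at -0.30 and 0.00.

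BHMT, the betaine-dependent enzyme of homocysteine remethylation, was also spread over the cold-stored kidneys, by other samples. In Ctl-C its log2 signals were 12.87, 13.03, 12.86, 12.99 and 12.92, an SD of 0.08. In WI+CS6h-C they were 12.01, 11.77, 13.08, 12.81 and 12.75, and in WI+CS24h-C they were 11.95, 11.67, 12.89, 12.97 and 12.53. Samples 1 and 2 were the low ones at both times, and the SD was 0.56 and 0.57. The same samples were low in HBB, the beta chain of hemoglobin and the only erythrocyte marker found. Its log2 signals were 0.40 and 0.07 against 1.72 to 4.84 at 6 h, and 0.12 and 0.48 against 3.07 to 5.82 at 24 h. In Ctl-C, where BHMT was 12.86 to 13.03, HBB was 0.29 to 2.85. HBB was well above background on 1 of 5 Ctl-C, 2 of 5 WI+CS6h-C and 3 of 5 WI+CS24h-C arrays. Its part in the BHMT values was not tested. The difference from Ctl-C was -0.45 (95% interval -0.99 to 0.08, adjusted p = 0.306) at 6 h and -0.53 (-1.07 to 0.00, adjusted p = 0.310) at 24 h, and from WI-C it was -0.64 (adjusted p = 0.231) and -0.72 (adjusted p = 0.218). In the CMJ the difference from Ctl was -0.17 and -0.21.

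GNMT, which disposes of excess S-adenosylmethionine, had the highest differences from Ctl after cold storage of the 6 genes other than CDO1. In Ctl-C its log2 signals were 4.78, 4.66, 4.88, 4.99 and 5.75, in WI+CS6h-C they were 6.13, 5.55, 5.64, 5.06 and 7.29, and in WI+CS24h-C they were 5.79, 6.15, 5.10, 6.23 and 6.86. All 5 samples of each cold group were above the Ctl-C mean of 5.01, but the ranges overlapped through control sample 5. The difference from Ctl-C was 0.92 ± 0.35 (SE, adjusted p = 0.139) at 6 h and 1.01 ± 0.35 (adjusted p = 0.141) at 24 h. With normexp correction it was 0.29 and 0.32. Single arrays moved the 6 h value, which was 0.58 without WI+CS6h-C sample 5 and 1.14 without sample 4, where the adjusted p was 0.0450. Sample 5, the highest for GNMT in all 4 cold groups, had the lowest mean log2 signal of the 10 proximal tubule markers in each, at 13.06 and 13.07 in cortex and 12.90 and 12.96 in the CMJ at 6 h and 24 h. Control sample 5, the highest for GNMT in both tissues, had the highest mean of the loop of Henle and collecting duct markers, 9.72 in cortex and 10.06 in the CMJ. Its proximal tubule mean was not low, at 13.49, the highest of Ctl-C, and at 13.1 in Ctl-CMJ, which ranged from 13.04 to 13.27. Cold sample 5 was the highest for the loop of Henle and collecting duct markers at 6 h, 9.72 in cortex and 9.79 in the CMJ. At 24 h it was not, at 9.58 against up to 9.72 in cortex and 9.7 against up to 9.84 in the CMJ. The part of these cells in the GNMT values was not tested. In the CMJ, where Ctl ranged from 5.58 to 6.50, the difference from Ctl was 0.34 (adjusted p = 0.650) and 0.45 (adjusted p = 0.461).

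MPST, the mercaptopyruvate sulfurtransferase, did not pass the test after warm ischemia in either tissue, though its WI-CMJ and Ctl-CMJ samples lay apart. In Ctl-CMJ its log2 signals were 4.92, 4.82, 4.66, 5.02 and 5.07, and in WI-CMJ they were 5.34, 5.22, 5.52, 5.64 and 5.62, with no overlap. Group ranges without overlap were found in 3.9% of all identifiers in this comparison, and the difference of 0.57 ± 0.24 (SE) had an adjusted p of 0.336. In WI+CS6h-CMJ the log2 signals were 4.45, 4.70, 5.48, 5.21 and 4.01, and in WI+CS24h-CMJ they were 4.45, 4.50, 5.02, 5.34 and 4.11. They overlapped both unstored groups, with samples 3 and 4 the high ones. Against WI-CMJ the difference was -0.70 ± 0.24 (adjusted p = 0.130) at 6 h and -0.79 ± 0.24 (adjusted p = 0.0835) at 24 h. The 24 h difference passed the test in 4 other settings, with the same value of -0.79 after a filter on dim identifiers (adjusted p = 0.0484), with a replicate block (0.0495) and with a slide block (0.0414), and at -0.95 without WI+CS24h-CMJ sample 4 (0.0379). The only erythrocyte marker found of 4 on the list, HBB, was well above background on 2 of 5 Ctl-CMJ and 5 of 5 WI-CMJ arrays, and ranged from 0.85 to 3.00 in Ctl-CMJ, 2.19 to 4.62 in WI-CMJ, 0.10 to 4.17 in WI+CS6h-CMJ and 0.07 to 4.64 in WI+CS24h-CMJ. The mean of 4 leukocyte markers of 6 ranged from 5.64 to 6.13 in Ctl-CMJ, 5.93 to 6.41 in WI-CMJ, 4.93 to 6.18 in WI+CS6h-CMJ and 4.93 to 6.30 in WI+CS24h-CMJ. The mean of 4 fibroblast markers of 6 ranged from 8.21 to 9.24 in Ctl-CMJ, 8.51 to 9.87 in WI-CMJ, 8.44 to 9.11 in WI+CS6h-CMJ and 8.49 to 9.49 in WI+CS24h-CMJ. The part of these cells in the MPST values was not tested. In cortex MPST differed from Ctl by 0.45 after warm ischemia (adjusted p = 1) and by 0.04 and -0.01 after cold storage. The WI means were 5.48 in cortex and 5.47 in the CMJ, and the interaction of tissue with WI was 0.12 ± 0.42 (SE).

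CTH, which releases cysteine from cystathionine, and AHCY stayed closest to the controls. CTH group means ran from 12.44 to 12.53 in cortex and from 12.13 to 12.40 in the CMJ, and no difference from Ctl lay outside -0.10 to 0.16. The 95% intervals of the CTH differences from Ctl lay within -0.44 to 0.50. AHCY group means ran from 10.43 to 10.58 in cortex and from 10.24 to 10.44 in the CMJ, with differences from Ctl between -0.05 and 0.16. The differences of its 2 probes from Ctl-C at 6 h were 0.07 (probe A_72_P223687) and -0.15 (probe A_72_P608202).

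**Figure D2:**
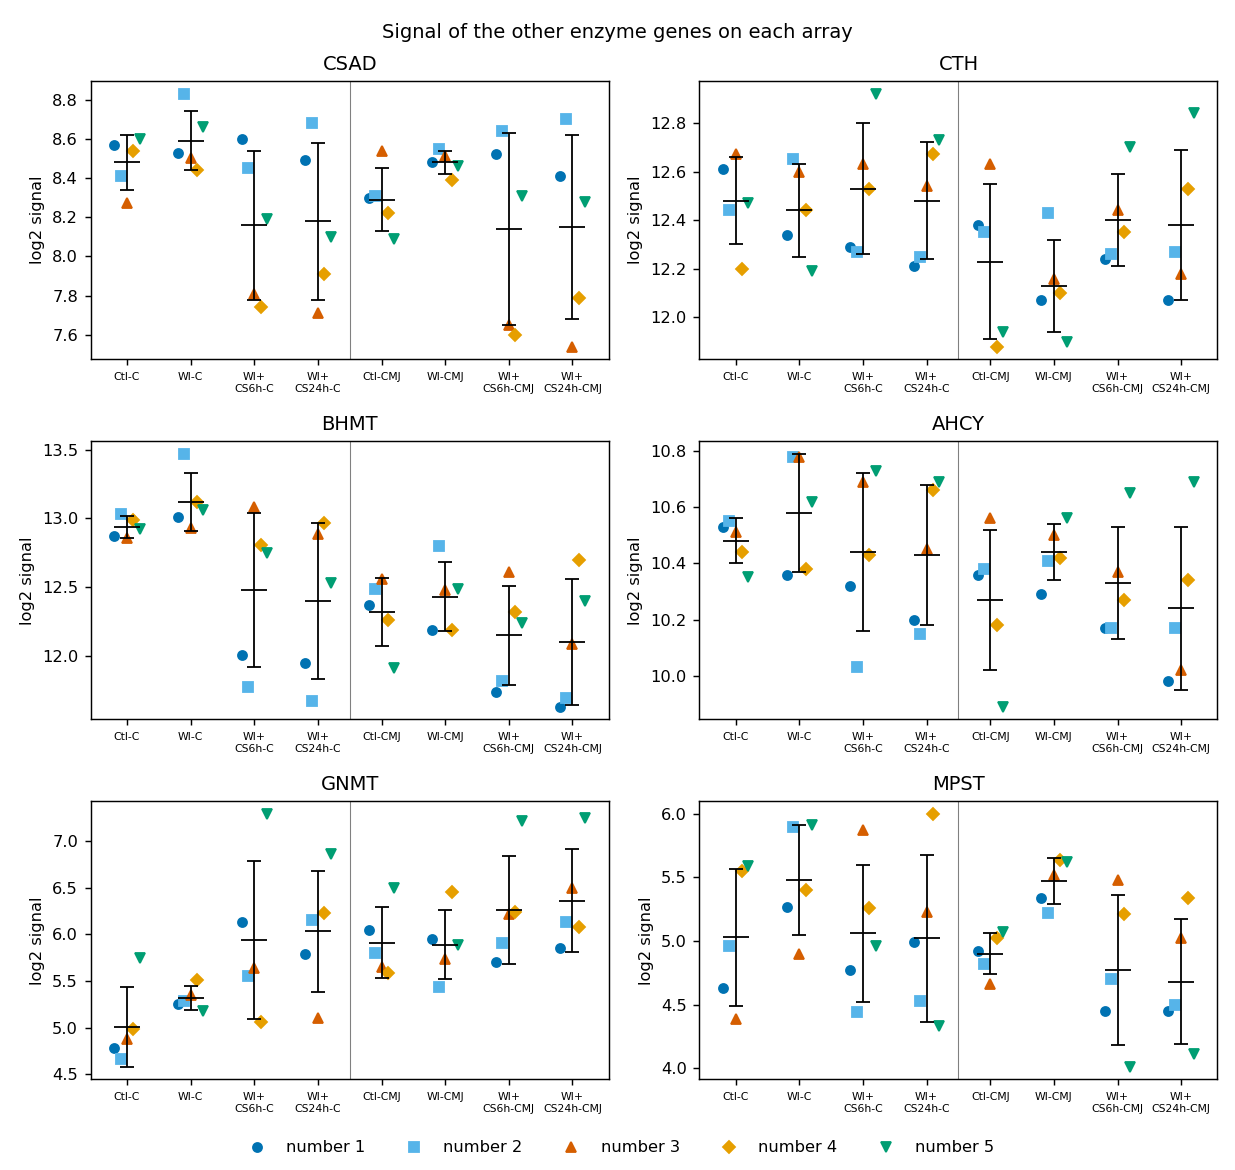
Log2 signal (vertical axis, a scale of its own in each panel) of CSAD, CTH, BHMT, AHCY, GNMT and MPST on each of 40 arrays by group, with the group mean and 1 SD (n = 5). In the BHMT panel cold-stored cortex samples 1 and 2 lie at 11.67 to 12.01, apart from the other cold-stored cortex samples, and in the CSAD panel samples 3 and 4 of the cold groups are the lowest.

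None of the 6 genes other than CDO1 passed the test (adjusted p under 0.05 and a log2 difference of at least 0.5 either way) in any of the 12 comparisons within a tissue. At an unadjusted p under 0.05 the 6 genes gave 1 difference each in 5 of them (GNMT or MPST) and 2 in each of 2 (BHMT and CSAD, cold-stored cortex against WI-C). Of all identifiers, 11.4% to 21.4% were under 0.05 in these 7 comparisons. The share of all identifiers that passed was 0.0946% for WI-C, 4.02% for WI+CS6h-C and 2.5% for WI+CS24h-C against Ctl-C, and 0.687%, 3.19% and 3.65% for the same conditions against Ctl-CMJ. Against WI it was 1.93% and 1.2% in cortex and 2.78% and 2.85% in the CMJ at 6 h and 24 h. Between 24 h and 6 h it was 0% in cortex (1119 identifiers at an unadjusted p under 0.05) and 0.00278% in the CMJ (1238). The median difference of the 6 genes from WI was -0.28 in cortex at both times and -0.20 and -0.26 in the CMJ, with 4 of 6 genes negative each time, against medians of 0.03, -0.01, 0.01 and 0.02 over all identifiers. From Ctl it was 0.00 and -0.03 in cortex and -0.04 and -0.09 in the CMJ for the same groups, and 0.14 after WI in both tissues.

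**Figure D3:**
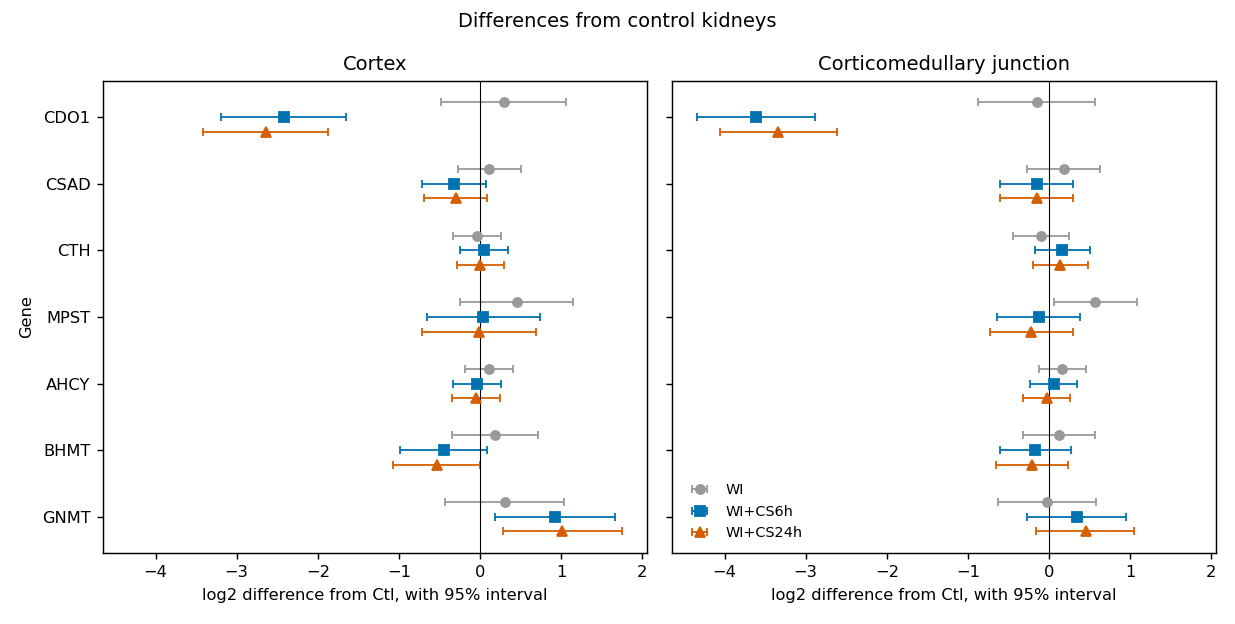
Log2 difference from Ctl of the same tissue (horizontal axis) with its 95% interval for the 7 genes, in cortex (left) and the corticomedullary junction (right), for WI, WI+CS6h and WI+CS24h (5 arrays a group). CDO1 lies at -2.42 to -3.61 after cold storage, and the other 6 genes between -0.53 and 1.01. The intervals of CDO1 after storage show its error only.

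The tissues were compared in the same way. None of the 6 genes passed the test between CMJ and cortex of Ctl kidneys, where 0.312% of all identifiers did, or with a replicate block that took samples of one number in Ctl, in WI or in both storage times as 1 kidney, where 0.537% did. GNMT differed by 0.90 ± 0.33 (SE, adjusted p = 0.436, and 0.206 with the block), higher in the CMJ, and BHMT by -0.62 ± 0.24 (adjusted p = 0.501, and 0.234 with the block), lower there. None of the 6 genes, and 0% of all identifiers, passed for the interaction of tissue with WI, WI+CS6h or WI+CS24h, where 710, 1856 and 928 identifiers had an unadjusted p under 0.05 by limma. With the block none passed either, and 917, 2356 and 1242 were under 0.05.

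For several genes, CSAD in both tissues and BHMT in cortex among them, cold-stored samples of the same number lay close together at 6 h and 24 h. In cortex the 5 BHMT samples spanned 1.31 at 6 h, while samples of the same number differed by -0.22 to 0.16 between the times. The CSAD samples spanned 0.87 at 6 h, with same-number differences of -0.12 to 0.22. BHMT in the CMJ was looser, with same-number differences of -0.52 to 0.39 and a span of 0.87 at 6 h. In the CMJ the CSAD span at 6 h was 1.04, with same-number differences of -0.11 to 0.19. GNMT in cortex did not do this, with same-number differences of -0.54 to 1.17 and a span of 2.24 at 6 h, but in the CMJ its same-number differences were -0.17 to 0.29 over a span of 1.52. The CDO1 differences given above stood against spans of 2.04 in cortex and 1.93 in the CMJ at 6 h. Over all well-measured identifiers, same-number samples at 6 h and 24 h deviated together in the CMJ (r of 0.591 to 0.840 over 5 pairs) but not in every pair in cortex (-0.418 to 0.619). The labels give numbers and say that the kidneys were the same, but not that a number is 1 kidney.

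**Figure D4:**
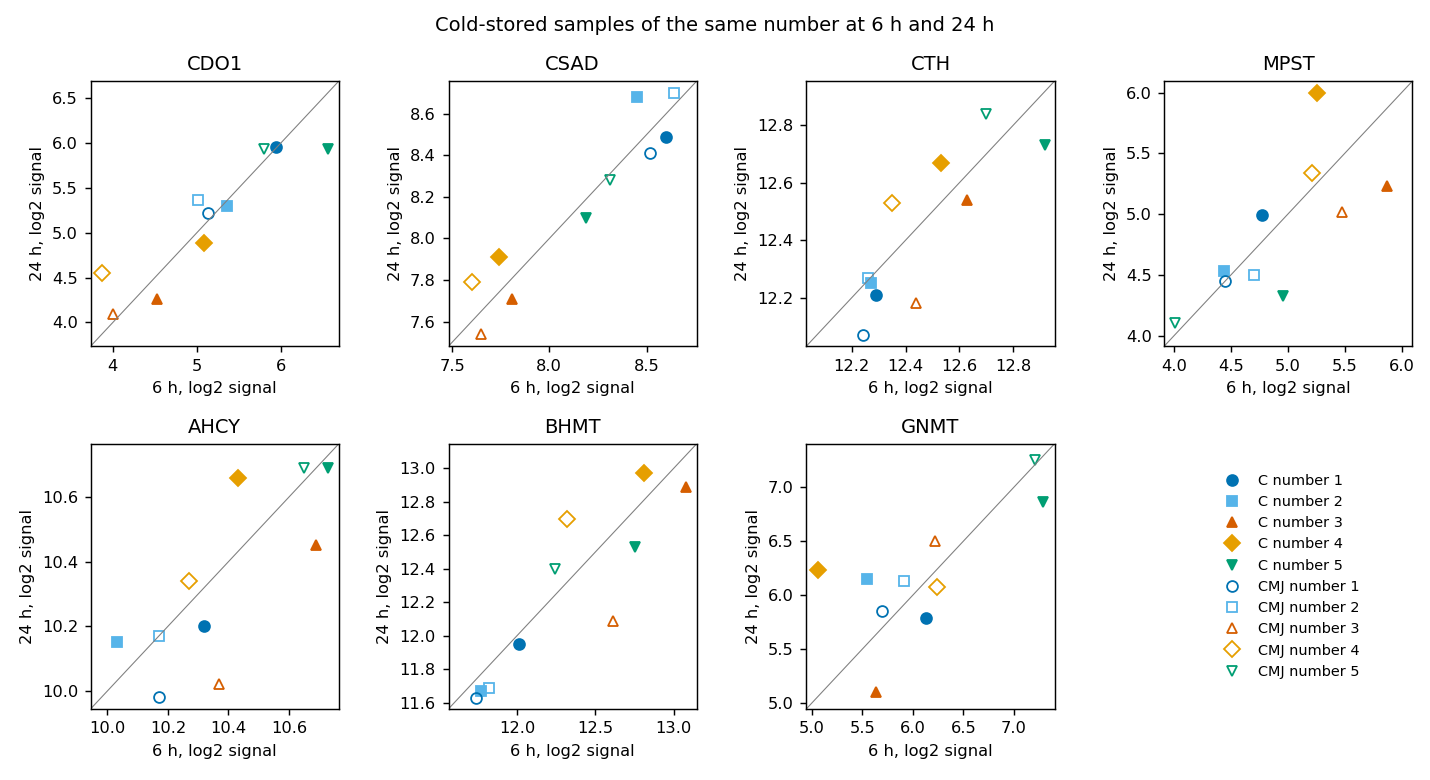
Log2 signal at 24 h (vertical axis) against 6 h (horizontal axis) of cold storage for samples of the same number, 1 panel per gene, filled markers for cortex and open markers for the corticomedullary junction; the line marks equal signals. Same-number CSAD signals differ by -0.12 to 0.22 in either tissue while the samples span 0.87 in cortex and 1.04 in the corticomedullary junction at 6 h.

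The wider pathway, without the 10 genes above, was read from a list of 72 symbols, of which 41 were found on the array with 50 identifiers. Against Ctl, none of the 50 passed after warm ischemia in either tissue. In cortex 6 passed at 6 h, 4 higher and 2 lower (1.63% and 2.39% of all identifiers), and 4 at 24 h, 3 higher and 1 lower (1.04% and 1.46%). In the CMJ 3 passed at 6 h, 2 higher and 1 lower (1.35% and 1.84%), and 3 at 24 h, 1 higher and 2 lower (1.35% and 2.3%). The median difference of the 50 lay between -0.01 and 0.02 in these 4 comparisons, against -0.01 to 0.05 over all identifiers.

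In homocysteine remethylation, MTHFD1, which interconverts folate one-carbon units, was lower through both of its identifiers. AK346354 had a log2 signal of 7.87 ± 0.12 (SD, n = 5) in control cortex, 7.17 ± 0.27 after 6 h and 7.25 ± 0.17 after 24 h of storage, and fell by 0.70 (adjusted p = 0.00249) and 0.62 (adjusted p = 0.00721). In the CMJ it fell by 0.52 at 6 h (adjusted p = 0.00522) and 0.62 at 24 h (adjusted p = 0.00116). ENSSSCT00000002527 passed in WI+CS6h-C (-0.59, adjusted p = 0.0434) and in WI+CS24h-CMJ (-0.58, adjusted p = 0.0309), and was at -0.59 (adjusted p = 0.0581) in WI+CS24h-C and -0.45 (adjusted p = 0.110) in WI+CS6h-CMJ. PIPOX, a sarcosine oxidase that works downstream of the betaine methyl groups and of GNMT's product, rose by 1.27 in cortex at both times (adjusted p = 0.0396 and 0.04995), from 9.34 ± 0.16 in Ctl-C to 10.61 ± 0.85 at 6 h and 10.61 ± 0.70 at 24 h. In the CMJ its differences were 1.29 (adjusted p = 0.0611) and 1.20 (adjusted p = 0.0780), with ranges apart from the controls.

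Among genes of glutathione and cysteine use, ANPEP, the brush border aminopeptidase N that splits cysteinylglycine, rose by 1.01 (adjusted p = 0.00963) and 0.96 (adjusted p = 0.0165) in cortex, from 11.05 ± 0.05 (SD, n = 5) in Ctl-C to 12.06 ± 0.38 and 12.01 ± 0.49. In the CMJ it rose by 0.99 at 6 h (adjusted p = 0.0312) and was at 0.85 (adjusted p = 0.0618) at 24 h. GGT1, the gamma-glutamyltransferase that opens glutathione, rose by 0.63 and 0.66 in cortex (adjusted p = 0.0161 at both times), and was at 0.47 (adjusted p = 0.0590) and 0.25 (adjusted p = 0.361) in the CMJ. The amino acid transporter SLC7A8 rose by 1.02 (adjusted p = 0.0174) and 0.88 (adjusted p = 0.0377) in the CMJ, and was at 0.57 and 0.50 in cortex. In the methionine cycle ADK, which removes the adenosine that AHCY releases, rose by 0.63 in WI+CS6h-C (adjusted p = 0.0497) and was at 0.58 in WI+CS24h-C (adjusted p = 0.0977). Several of these calls lay near the threshold and were lost with fewer arrays. The 6 h cortex count of 6 was 2 without Ctl-C sample 1 or 3 or WI+CS6h-C sample 1, and 3 without Ctl-C sample 2, 4 or 5. The 24 h cortex count of 4 was 2 without Ctl-C sample 1 or 3 or WI+CS24h-C sample 1. In the CMJ the 6 h count of 3 was 1 without WI+CS6h-CMJ sample 2, and the 24 h count of 3 was 1 without sample 1 or 2 of Ctl-CMJ or of WI+CS24h-CMJ. Leaving out arrays in turn, PIPOX passed at 6 h in cortex in 2 of 10, with differences of 0.98 to 1.53. At 24 h in cortex it also passed in 2 of 10, with 1.06 to 1.42. ADK passed at 6 h in cortex in 2 of 10, with 0.48 to 0.75. GGT1 passed in cortex in 7 of 10 at 6 h and in 8 of 10 at 24 h. MTHFD1 through ENSSSCT00000002527 passed in 2 of 10 at 6 h in cortex (-0.67 to -0.48) and in 4 of 10 at 24 h in the CMJ (-0.67 to -0.46). None of these differences changed sign, and with normexp correction that of ADK was 0.28. At 6 h in cortex ANPEP passed in 10 of 10 and MTHFD1 through AK346354 in 10 of 10. In the CMJ at 6 h ANPEP passed in 4 of 10, and SLC7A8 in 9 of 10 at 6 h and 3 of 10 at 24 h. Over other settings SLC7A8 in the CMJ was at 0.51 to 1.1 at 6 h, passing in 9 of 11. At 24 h it was at 0.45 to 0.94, passing in 7 of 11. Of the 10 proximal tubule markers, 2 were called higher in WI+CS6h-CMJ against Ctl-CMJ, SLC22A8 at 0.79 (10.93 to 11.72, adjusted p = 0.0373) and PDZK1 at 0.54 (14.06 to 14.60, adjusted p = 0.000425), while the others were not called, PCK1 going from 15.71 to 15.36 and FBP1 from 14.77 to 14.34 there. None of the 10 was called in the other 3 cold groups against Ctl. The mean of the 10 markers ranged from 13.04 to 13.27 in Ctl-CMJ and from 12.90 to 13.67 in WI+CS6h-CMJ. Of the 4 endothelial markers, KDR was called higher against Ctl-CMJ, at 0.59 (adjusted p = 0.0138) at 6 h and 0.65 (adjusted p = 0.00595) at 24 h. The part of these markers in the pathway differences was not tested. No identifier passed in any comparison with Ctl from 3 of the lists. These were methionine salvage and polyamines (4 identifiers), cysteine catabolism and taurine (7), and sulfide and sulfite handling (5). At most 4.02% of all identifiers passed in a comparison with Ctl, so counts of 0 from lists this short are near that share.

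**Figure D5:**
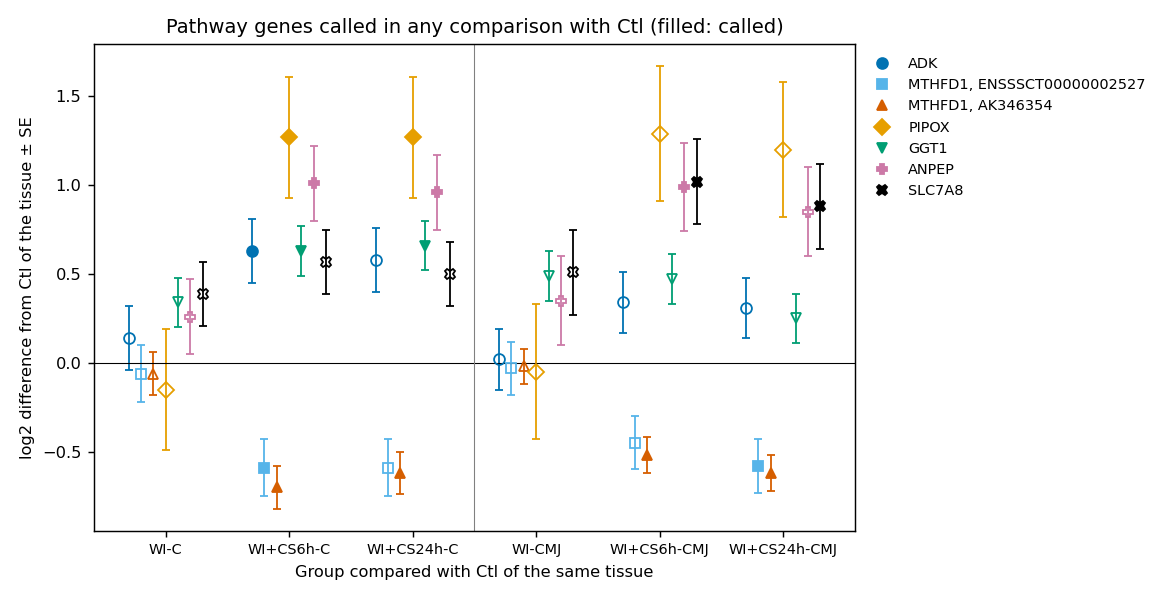
Log2 difference from Ctl of the same tissue ± SE (vertical axis) for the 7 identifiers of the pathway list that passed the test in any of 6 comparisons (horizontal axis; 5 arrays a group); filled markers passed the test. Both MTHFD1 identifiers lie at -0.45 to -0.70 in the 4 cold groups, and PIPOX at 1.20 to 1.29.

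Against WI, the identifiers that passed were MTHFD1 through AK346354 at 6 h (-0.64) and 24 h (-0.55) in cortex, PIPOX at 1.42 at both times in cortex, and both MTHFD1 identifiers at 24 h in the CMJ (-0.60 and -0.54). With arrays left out in turn, PIPOX passed in 3 of 10 at each time, with differences of 1.13 to 1.68 at 6 h and 1.21 to 1.57 at 24 h, and MTHFD1 through ENSSSCT00000002527 in 1 of 10, with -0.62 to -0.47. MTHFD1 through AK346354 passed in 10 of 10 at 6 h and 3 of 10 at 24 h (-0.62 to -0.51) in cortex, and in 10 of 10 at 24 h in the CMJ. No difference changed sign. The cortex counts of 2 ranged over other settings from 0 to 5 at 6 h and from 0 to 2 at 24 h, and with arrays left out from 1 to 4 and from 0 to 2. In the CMJ the 24 h count of 2 ranged from 1 to 6 and from 1 to 4, and the 6 h count of 0 reached 2 and 1. None passed between 24 h and 6 h in either tissue.

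Of 7364 named identifiers well above background on at least 20 of the 40 arrays, the 5 with the pattern most like CDO1 were CCL26, a chemokine (Pearson r = 0.955), CALHM2, a calcium homeostasis modulator (0.919), PEX6, a peroxisome biogenesis factor (0.912), CYP39A1, an oxysterol hydroxylase (0.911), and HUS1, a DNA damage checkpoint protein (0.901). Among the enzymes, r with CDO1 was 0.602 for CSAD, 0.336 for BHMT, 0.220 for MPST, 0.200 for AHCY, -0.221 for CTH and -0.310 for GNMT. These are descriptions over 40 arrays, which share the unstored and stored groups, slides and kidneys.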

How the data were processed

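The arrays were scanned by the authors, who deposited spot intensity values from Agilent Feature Extraction 11.5.1.1 and a table of log2 values, quantile normalized by condition according to the methods. From the processed intensity, control and outlier spots were left out, log2 signals were quantile normalized over 40 arrays, and spots of an identifier were averaged. Each tissue (20 arrays) was fitted with limma 3.58.1 in R 4.3.3, with Benjamini-Hochberg adjustment over all identifiers. A call needed an adjusted p under 0.05 and a log2 difference of at least 0.5. Tissue differences and interactions came from a fit of 40 arrays. The members and lists were chosen with earlier results of these data known. All members were named, as were pathway genes called against Ctl or WI and the 5 identifiers most like CDO1. On simulated arrays the WI+CS6h-C against Ctl-C fit called 95% of changes of 2.5 and 50% of changes of 1 log2 unit. The same fit in the CMJ called 100% and 72%. The simulation changed 100 of 35939 identifiers at each size in cortex, with independent errors of equal spread in every group. In the data more identifiers passed, arrays shared kidneys and several genes were more spread after storage, so these rates do not carry over. Samples of the same number deviated together, in every pair, in the CMJ at 6 h and 24 h. They also did so between the tissues after WI, WI+CS6h and WI+CS24h. The lowest r of these pairs was 0.115, between the tissues after WI. The own number was the best match in 4, 4, 3 and 2 of 5 pairs, in the same order. Alternatives covered scaling, filters, background correction, the deposited values, blocks and arrays left out in turn. The number of arrays limits the precision. Nothing says that samples of a group are more than single biopsies of 5 kidneys. The main fits had no term for the kidney, though the 6 h and 24 h samples, and cortex and CMJ, shared kidneys. Their p-values therefore take samples of the same kidney as independent.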

Additional observations from a re-analysis of the deposited data

How the results depend on the processing

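No result changed direction while called. CDO1 was lower in cold-stored kidneys under all 11 other settings. It was also lower with each array left out, a sign fixed by the ranges without overlap. Its log2 differences at 6 h and 24 h shrank with normexp correction, against Ctl to -1.16 and -1.22 in cortex and -1.66 and -1.59 in the CMJ, and against WI to -1.34 and -1.41 in cortex and -1.54 and -1.46 in the CMJ. With the deposited log2 values they were -2.75 and -2.61 against Ctl-CMJ and -2.60 and -2.46 against WI-CMJ. With arrays left out in turn they ranged from -3.87 to -2.17. The number of the other 6 genes called was 0 and became 1 for WI+CS24h-CMJ against WI-CMJ with the filter on dim identifiers, the replicate block and the slide block. It ranged from 0 to 1 with arrays left out there and for WI+CS6h-C against Ctl-C. The gene was MPST in the CMJ and GNMT in cortex. The replicate block changed no other call of the 7 genes. The scan day block and the replicate block within the cold groups alone, chosen after seeing the data, changed none. Pathway counts of 6, 4, 3 and 3 against Ctl (cortex 6 h and 24 h, CMJ 6 h and 24 h) ranged over other settings from 2 to 7, 3 to 5, 1 to 5 and 0 to 5, and with arrays left out from 2 to 6, 2 to 5, 1 to 4 and 1 to 4. The cause was not tested.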
